A study of Mus musculus with 2 samples.

Results

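Fgb, Fgg, Hp, Cp, Saa1 and Saa3 encode plasma proteins of the acute phase response, and their transcripts were examined here in single cells of the mouse mammary gland. They are 6 of the 32285 genes counted, and they were chosen by name with earlier results of these 2 libraries in view. Their levels and the differences between the libraries are therefore given as a description, with intervals that cover counting error only and with no test. Cells of adult wild-type female mice (9 to 10 weeks old in the sample labels, 8 to 10 weeks in the protocol) were sorted to hold CD45+ immune cells and CD31- TER119- cells, and each group was sequenced as 1 droplet library. Ctrl stands for control mice and CL for mice that received clodronate liposomes into the peritoneum before the glands were taken, vesicles whose cargo kills the phagocytes that engulf them. How many mice and how much of each sorted fraction went into a library is not given in the sources used here, so treatment, animals and library preparation cannot be told apart.

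The acute phase response is the shift in plasma proteins that follows infection or injury. Liver cells are its main source, and interleukin-6 acting through STAT3, interleukin-1 and TNF acting through NF-kB, and the C/EBP factors switch the genes on. Fibrinogen, the precursor of the fibrin clot, is built from pairs of alpha, beta and gamma chains encoded by Fga, Fgb and Fgg. Haptoglobin (Hp) binds haemoglobin set free from red cells, and ceruloplasmin (Cp) carries copper and oxidises iron so that it can be loaded onto transferrin. Saa1 encodes a serum amyloid A that liver cells release into lipoproteins, whereas Saa3 is the form made in tissues such as fat, epithelium and macrophages.

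The genes lie in a few clusters of the genome (positions on GRCm38, annotation GENCODE M21). Fgg (chr3:83007724-83015049, plus strand) and Fgb (chr3:83040141-83049863, minus strand) flank Fga (chr3:83026076-83033627, plus strand) within 42140 bases. Cp (chr3:19957054-20009145, plus strand) lies elsewhere on the same chromosome and Hp (chr8:109575128-109579172, minus strand) on another. Saa3 (chr7:46711998-46715700, minus strand) and Saa1 (chr7:46740497-46742980, minus strand) are neighbours. The last 300 bases of the Saa1 transcript, where these reads fall, were 92.4% identical to those of Saa2, so the split of counts between Saa1 and Saa2 is uncertain, whereas Saa1 and Saa3 were 45.9% identical over the same stretch. Fgg overlaps Gm30097 and Cp overlaps Hps3, both on the opposite strand, which the strand-keeping reads of this assay separate.

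The sequences before the start sites of 4 of the genes are shown because the known acute phase elements can be looked up in them. RefSeq start sites (GRCm38.p6) were available for 5 of the 6 genes (all but Hp), and the 250 bases before the start were searched on both strands for CTGGGA (the core of the interleukin-6 element), TTCNNNGAA (the STAT pattern) and TTGCNNAA (a C/EBP pattern). Capitals mark the matches, none of which overlaps another, and each sequence is written 5′ to 3′ on the strand of its gene.
Fgb, chr3:83049864-83050113, minus strand: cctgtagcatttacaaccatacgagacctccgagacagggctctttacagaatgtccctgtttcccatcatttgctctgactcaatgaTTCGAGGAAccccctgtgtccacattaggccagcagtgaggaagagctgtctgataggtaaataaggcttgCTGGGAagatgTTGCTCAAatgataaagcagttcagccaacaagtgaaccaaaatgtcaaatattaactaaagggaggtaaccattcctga
Fgg, chr3:83007474-83007723, plus strand: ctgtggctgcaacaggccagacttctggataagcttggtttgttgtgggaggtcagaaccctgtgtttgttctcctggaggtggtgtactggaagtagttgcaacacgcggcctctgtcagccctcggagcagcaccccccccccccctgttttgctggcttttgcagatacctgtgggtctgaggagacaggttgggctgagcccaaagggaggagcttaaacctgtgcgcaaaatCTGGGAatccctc
Cp, chr3:19956804-19957053, plus strand, the first of 2 starts: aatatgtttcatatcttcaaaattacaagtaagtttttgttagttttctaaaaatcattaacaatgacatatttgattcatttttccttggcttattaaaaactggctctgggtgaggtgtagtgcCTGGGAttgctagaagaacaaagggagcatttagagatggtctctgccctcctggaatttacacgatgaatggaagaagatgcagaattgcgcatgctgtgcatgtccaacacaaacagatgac
Saa3, chr7:46715677-46715926, minus strand: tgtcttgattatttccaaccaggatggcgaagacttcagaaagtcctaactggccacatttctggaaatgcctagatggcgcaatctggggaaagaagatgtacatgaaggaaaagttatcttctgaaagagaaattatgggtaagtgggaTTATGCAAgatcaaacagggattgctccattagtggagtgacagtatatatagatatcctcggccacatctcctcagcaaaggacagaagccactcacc
Fgb held all 3 patterns, with TTCNNNGAA at 162 to 154, CTGGGA at 91 to 86 and TTGCNNAA at 80 to 73 bases before the start. Fgg held CTGGGA alone, at 13 to 8 bases, and the first Cp start had it at 124 to 119 bases. The second Cp start, not shown, had TTGCNNAA on the opposite strand, at 70 to 63 bases. Saa3 held TTGCNNAA on the opposite strand, at 99 to 92 bases. Saa1, whose sequence is not shown, held it on its own strand, at 182 to 175 bases. Of 32851 windows of this length before RefSeq starts, 27.0% held CTGGGA, 7.02% held TTCNNNGAA and 9.56% held TTGCNNAA, so CTGGGA is a frequent string. A match is a description of the letters and not a binding site.

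The libraries held 118743318 (Ctrl) and 155765480 (CL) UMIs (unique molecular identifiers, which count captured transcript molecules), empty droplets included. After filtering, 5937 cells with 86092221 UMIs remained in the Ctrl-labelled library and 8826 cells with 117525807 UMIs in the CL-labelled library. Cells were clustered over both libraries without the 6 genes and other acute phase genes, and clusters were named from standard markers with the ending "-like". The classes held 2132 and 2633 hormone-responsive-like luminal cells, 2656 and 3913 secretory-lineage-like luminal cells, 408 and 444 basal-like cells, 224 and 238 fibroblast-like cells, 53 and 60 endothelial-like cells, 59 and 254 macrophage-like cells, and 213 and 734 T and NK-like cells in the libraries labelled Ctrl and CL. The macrophage-like class was thus larger in the CL-labelled library, against its label. The excess lay in cluster 22 (led by Lyz2 and S100a8, 19 and 211 cells), whereas cluster 0 (led by Cd74 and including C1q genes) had 40 and 43 cells, a smaller share of the CL-labelled library. The libraries are named by their labels throughout for that reason, and every difference below takes its direction from those labels. Endothelial-like cells were present although the sort selected CD31- cells. Candidate cells of the 2 libraries shared 22 barcodes.

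Across all retained cells the Ctrl-labelled library held 29469 Fgg, 19879 Fgb, 17038 Hp, 9094 Cp, 110 Saa3 and 12 Saa1 UMIs. The library labelled CL held 67201 Fgg, 57063 Fgb, 23399 Hp, 20333 Cp, 449 Saa3 and 14 Saa1 UMIs. The first 4 genes were thus measured at depth, Saa3 thinly and Saa1 hardly at all. Fga, which encodes the remaining fibrinogen chain, had 7 and 8 UMIs in all. The genes divided the tissue among them: Fgb, Fgg and Hp were transcripts of the hormone-responsive-like cells, Cp of the secretory-lineage-like cells and Saa3 of a few fibroblast-like cells. Hormone-responsive-like cells held 94.9% (Ctrl) and 89.2% (CL) of all Fgb UMIs, 92.0% and 84.9% of Fgg UMIs, and 91.2% and 70.8% of Hp UMIs. Part of the rest lay in unnamed cluster 21, which had markers of both luminal classes. It held 593 and 4765 Fgb, 1361 and 8222 Fgg, and 972 and 5436 Hp UMIs. Secretory-lineage-like cells held 77.6% and 71.1% of Cp UMIs, and fibroblast-like cells 71.8% and 83.1% of Saa3 UMIs.

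**Figure D1:**
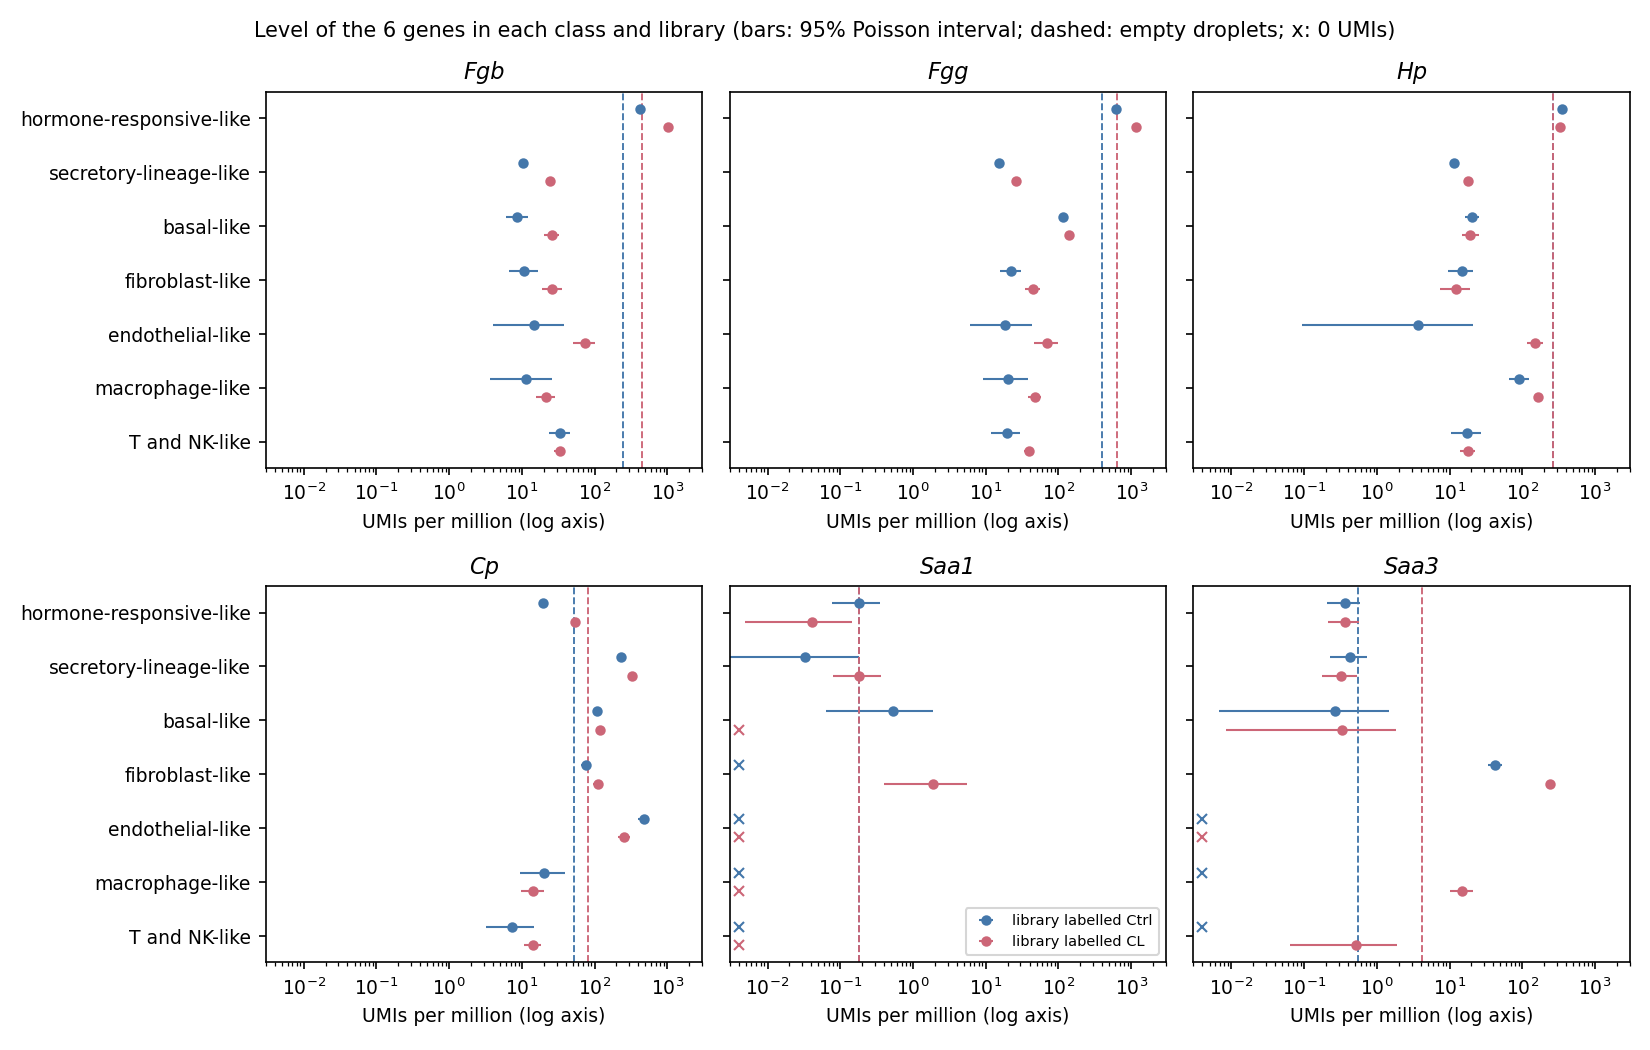
Level of each gene in CPM (log axis) in 7 classes of cells, with exact 95% Poisson intervals, in the libraries labelled Ctrl and CL. Dashed lines mark the level in empty droplets and crosses a count of 0. Fgb, Fgg and Hp are highest in hormone-responsive-like cells, Cp in secretory-lineage-like and endothelial-like cells, and Saa3 in fibroblast-like cells.

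Droplets without a cell measure the RNA set free by broken cells, which enters every droplet. In droplets of 100 to 300 UMIs the 6 genes were present at levels that followed the cells: Fgb at 244 and 446 CPM (UMIs of the gene per 1000000 UMIs) in the libraries labelled Ctrl and CL, Fgg at 392 and 638, Hp at 265 and 261, Cp at 52.4 and 81.4, Saa3 at 0.544 and 4.14, and Saa1 at 2 UMIs in each. T and NK-like cells, which should lack these transcripts, served as the background within cells: Fgb at 33.2 and 33.4 CPM, Fgg at 19.4 and 39.5, Hp at 17.5 and 17.8, and Cp at 7.38 and 14.1. Of the 4 genes with at least 50 UMIs in T and NK-like cells, 1 (Fgg) was higher by 2-fold or more in CL, where 1.97% of all 7112 genes were higher and 1.1% lower. These counts were small, and their balance was not that of the droplets in the Ctrl-labelled library, at 0.583 [0.324, 1.03] Fgg UMIs per Fgb UMI against 1.60 [1.53, 1.68]. A class at or below the T and NK-like levels is read here as background.

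Hormone-responsive-like cells, the luminal cells that carry the oestrogen, progesterone and prolactin receptors, were the site of the fibrinogen transcripts. The summed hepatocyte markers stood at 0.837 CPM (Ctrl) and 0.886 CPM (CL) in these cells, with Ahsg, Serpina1a, Ttr, Apoc3 and Fabp1 at 0 UMIs, and the summed adipocyte markers at 1.27 and 0.161 CPM. Fgb stood at 427 CPM [421, 433] in the Ctrl-labelled library and at 1025 CPM [1016, 1034] in the CL-labelled library. Its log2 ratio of CL over Ctrl was 1.26 [1.24, 1.29], and no single cell held more than 1.21% of its UMIs. Fgg stood at 613 CPM [606, 621] and 1150 CPM [1140, 1159], a log2 ratio of 0.91 [0.89, 0.93]. Both chains were above the empty droplets and far above the T and NK-like cells in each library. Fga had 6 and 8 UMIs in the same cells, so the alpha chain was at the edge of detection where the other chains were among the more abundant transcripts.

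Haptoglobin did not follow the fibrinogen chains. Hp stood at 352 CPM [346, 357] in the Ctrl-labelled library and at 334 CPM [329, 339] in the CL-labelled library, a log2 ratio of −0.075 [−0.11, −0.043]. This small difference turned its sign with several of the processing choices and with the makeup of the class. Cp stood at 19.4 CPM [18.1, 20.8] and 54.3 CPM [52.3, 56.4], a log2 ratio of 1.49 [1.37, 1.60]. Cp was thus low in these cells, above the T and NK-like cells but below the 100 to 300 UMI droplets for the libraries labelled Ctrl and CL alike (52.4 against 19.4 CPM, 81.4 against 54.3 CPM). Saa3 had 16 and 18 UMIs, each in a different cell. Saa1 had 8 and 2 UMIs, of which 6 in the Ctrl-labelled library came from 1 cell.

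Of the 4 genes with at least 50 UMIs in hormone-responsive-like cells, 2 (Fgb and Cp) were higher by 2-fold or more in CL. None of the 4 was 2-fold lower. Among all 13141 genes at that depth 0.769% were higher and 1.61% lower, and the median log2 ratio was 1.09 for the 4 genes and −0.026 for all genes. The rule that chose the genes used these values, so nothing is read from that count, nor from the same counts in the other classes.

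**Figure D2:**
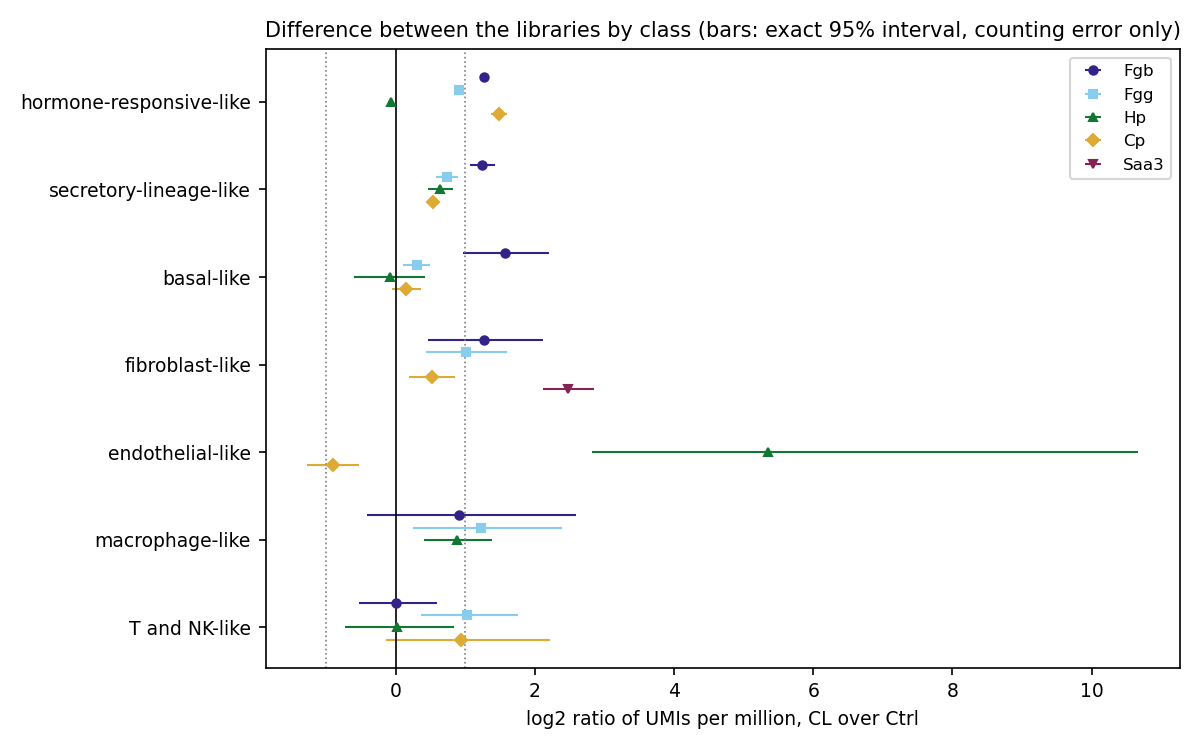
Log2 ratio of CPM, CL over Ctrl, for each gene and class with at least 50 UMIs, with exact 95% intervals that cover counting error only. The dotted lines mark 2-fold differences. Fgb and Fgg lie above 0 in hormone-responsive-like cells, Hp lies near 0 there, and Cp lies below 0 in endothelial-like cells.

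Depth differed between the libraries, with medians of 20078 UMIs (Ctrl) and 16995 UMIs (CL) per hormone-responsive-like cell, so shares of cells were compared after each cell was thinned to 6903 UMIs. This left 1931 and 2369 cells and dropped 201 and 264 shallower ones. A Fgb UMI was then found in 36.5% [34.3, 38.6] of cells of the Ctrl-labelled library and in 56.9% [54.9, 58.9] of the CL-labelled library (46.9% and 66.5% without thinning). For Fgg the shares were 55.0% [52.7, 57.2] and 77.2% [75.5, 78.9] (67.9% and 84.3% without thinning). More cells held the fibrinogen transcripts in the CL-labelled library at equal depth. For Hp the shares were 52.8% [50.6, 55.1] and 52.2% [50.2, 54.2] (70.5% and 68.4% without thinning). For Cp they were 8.08% [6.90, 9.38] and 21.7% [20.1, 23.4] (17.4% and 34.2% without thinning). T and NK-like cells thinned to the same depth, of which only 35 and 125 were deep enough, gave 11.4% and 16.0% for Fgb, 8.57% and 16.8% for Fgg, 2.86% and 11.2% for Hp, and 2.86% and 5.60% for Cp.

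The transcripts were spread very unevenly over the hormone-responsive-like cells. At 6903 UMIs per cell the median cell held 0 Fgb UMIs (Ctrl) and 1 (CL), and 1 and 4 Fgg UMIs. The top 10% of cells held 70.3% of Fgb UMIs in the Ctrl-labelled library and 56.1% in the CL-labelled library. Cells with at least 20 Fgb UMIs made up 4.09% and 11.4%, and those with at least 20 Fgg UMIs 6.37% and 12.3%. The difference between the libraries thus lay in the share of cells with many UMIs as well as in the share with any. Hp was as uneven but alike in both, with 61.1% and 62.5% of its UMIs in the top 10% of cells and 2.38% and 2.28% of cells at 20 or more.

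**Figure D3:**
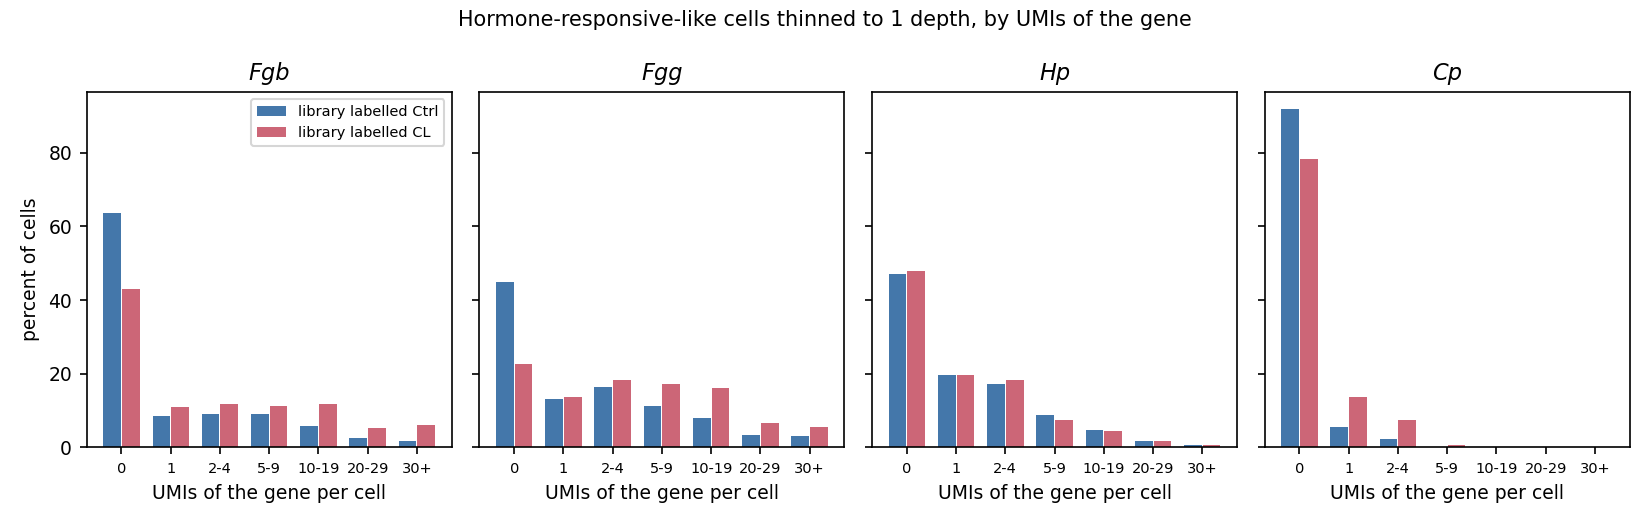
Percent of hormone-responsive-like cells by number of UMIs of Fgb, Fgg, Hp and Cp, after thinning each cell to 6903 UMIs (1931 cells labelled Ctrl, 2369 labelled CL). Fewer cells lack Fgb, Fgg and Cp in the CL-labelled library, and the Hp bars of the libraries nearly coincide.

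Within these cells the fibrinogen chains were often detected together. At equal depth Fgg was detected in 73.4% of cells with a Fgb UMI and in 44.4% of those without in the Ctrl-labelled library, and in 86.0% and 65.7% in the CL-labelled library.

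The hormone-responsive-like class was made of clusters that differed in fibrinogen and whose shares differed between the libraries. Cluster 13, led by Upk3a and Areg besides Fgb and Fgg, held 11.8% of the class in the Ctrl-labelled library and 50.7% in the CL-labelled library. Cluster 17, led by Gpx3 and Aoc1, held 42.1% and 2.89%. Clusters 1 and 2 held 23.2% and 18.5% (Ctrl) and 20.1% and 23.7% (CL). A cluster drawn mostly from 1 library may be that library rather than a type of cell.

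Among clusters 1, 2, 13 and 17, cluster 13 had the highest Fgb level, at 955 CPM [929, 981] in the Ctrl-labelled library and 1453 CPM [1438, 1467] in the CL-labelled library. Cluster 2 followed with 608 CPM [590, 627] and 727 CPM [710, 744]. Cluster 17 had 338 CPM [330, 347] and 440 CPM [406, 475], and cluster 1 had 205 CPM [196, 213] and 255 CPM [245, 265]. The order of these 4 clusters was the same in both libraries, and their intervals did not overlap (the dividing cells of cluster 12 are given below). Within clusters the log2 ratio of Fgb was 0.61 in cluster 13, 0.38 in cluster 17, 0.31 in cluster 1 and 0.26 in cluster 2, all below the 1.26 of the class. With the clusters of the CL-labelled library weighted as in the Ctrl-labelled library, Fgb in the CL-labelled library was 601 CPM and its log2 ratio 0.49.

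Fgg kept most of its difference inside the clusters. Its level went from 874 to 1303 CPM in cluster 13 (log2 ratio 0.58), from 711 to 1232 CPM in cluster 2 (0.79), from 694 to 1213 CPM in cluster 17 (0.81) and from 413 to 786 CPM in cluster 1 (0.93). At the cluster makeup of the Ctrl-labelled library its log2 ratio was 0.81, against 0.91 for the class as it stood. Cp was likewise higher in the CL-labelled library in each of these clusters, with log2 ratios of 1.12 to 1.48 and a value of 1.43 at that makeup.

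Hp had another order over the clusters and another answer to the weighting. Among clusters 1, 2, 13 and 17 of the Ctrl-labelled library it was highest in cluster 17 (478 CPM [468, 488]) and lowest in cluster 13 (254 CPM [241, 268]), the cluster where Fgb was highest. In the CL-labelled library it was 550 CPM [512, 589] in cluster 17, 489 CPM in cluster 2, 379 CPM in cluster 1 and 247 CPM [241, 253] in cluster 13. Its log2 ratio was 0.65 in cluster 2, 0.33 in cluster 1, 0.20 in cluster 17 and −0.043 [−0.13, 0.042] in cluster 13. At the makeup of the Ctrl-labelled library the Hp ratio of the class was 0.35, so the sign of the class value of −0.075 rested on the shares of the clusters.

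**Figure D4:**
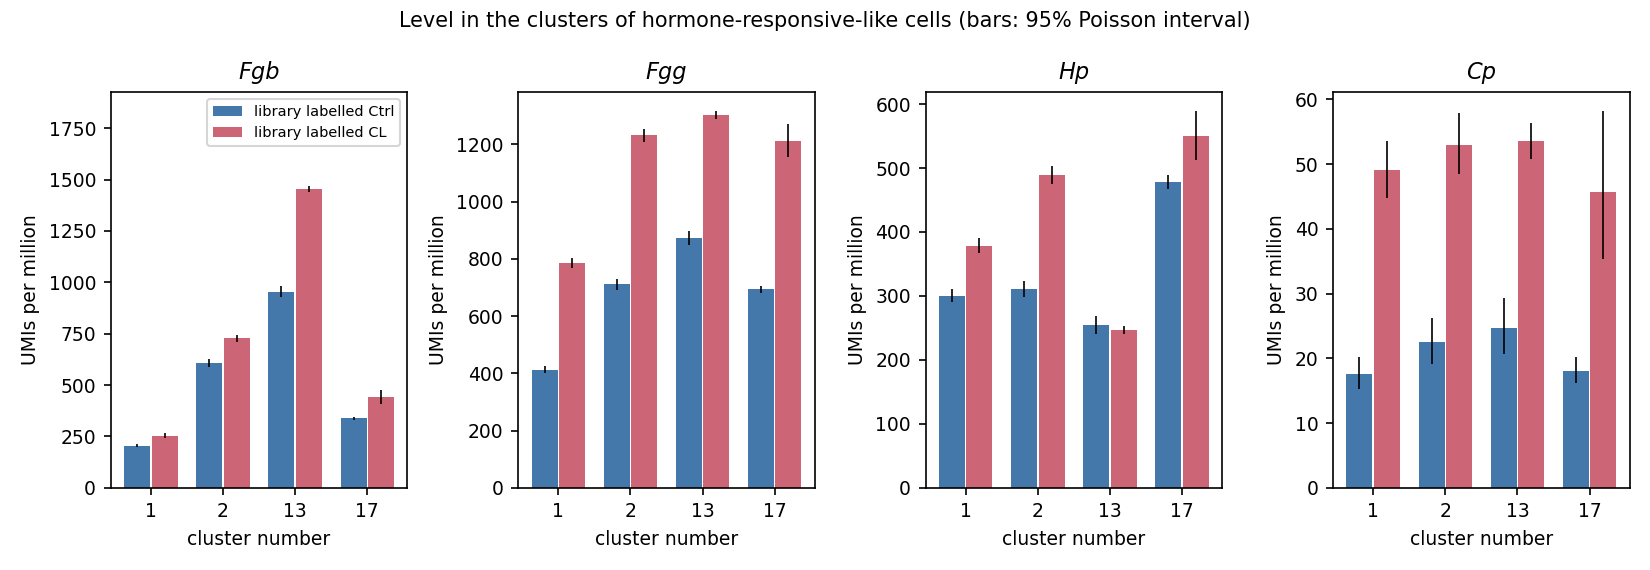
Level of Fgb, Fgg, Hp and Cp in CPM in the clusters of hormone-responsive-like cells (cluster number on the x axis) in the libraries labelled Ctrl and CL, with exact 95% Poisson intervals. Of clusters 1, 2, 13 and 17, Fgb is highest in cluster 13 and lowest in cluster 1, while Hp is highest in cluster 17 and lowest in cluster 13.

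Dividing cells formed cluster 12, with 143 cells labelled Ctrl and 85 labelled CL, mostly of hormone-responsive-like character. There Fgb went from 316 CPM [299, 334] to 942 CPM [908, 978], Fgg from 163 CPM [151, 176] to 531 CPM [505, 558], and Hp from 63.2 CPM [55.7, 71.5] to 323 CPM [303, 345]. The log2 ratios were 1.58, 1.70 and 2.36, over all cells of the cluster, each of which was named alone. Those named hormone-responsive-like made up 4.46% (Ctrl) and 2.66% (CL) of that class. They held 1257 of the 1264 Fgb UMIs of the cluster in the Ctrl-labelled library and 2458 of 2768 in the CL-labelled library. The part of the class mix in these ratios was not tested, so they are not ranked against clusters 1, 2, 13 and 17. Few cells stood behind the ratios: 1 cell held 493 of the 2768 Fgb UMIs of the cluster in the CL-labelled library.

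The balance of the fibrinogen chains also differed between cells. UMIs tag the end of a transcript once whatever its length, and since capture can differ between genes the ratio is compared between cells rather than read as a number of chains. Hormone-responsive-like cells had 1.44 [1.41, 1.46] Fgg UMIs per Fgb UMI in the Ctrl-labelled library and 1.12 [1.11, 1.13] in the CL-labelled library. By cluster the ratio was 2.02 and 3.09 in cluster 1, 2.05 and 2.76 in cluster 17, 1.17 and 1.69 in cluster 2, and 0.915 and 0.897 in cluster 13. In clusters 1, 2 and 17 the ratio was higher in the CL-labelled library, while the class as a whole had the lower ratio there.

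Basal-like cells stood apart in this balance. They are the contractile outer layer of the ducts, and they held 435 Fgg UMIs in the Ctrl-labelled library and 422 in the CL-labelled library against 33 and 77 Fgb UMIs. That is 13.2 [9.25, 19.4] and 5.48 [4.29, 7.08] Fgg UMIs per Fgb UMI, where the empty droplets of the same libraries had 1.60 [1.53, 1.68] and 1.43 [1.38, 1.48]. Fgg stood at 115 CPM [104, 126] and 141 CPM [128, 155], above the T and NK-like cells but below the empty droplets (392 and 638 CPM). Free RNA was estimated at 10.6% of the UMIs of basal-like cells in each library. The log2 ratio of Fgg was 0.30 [0.10, 0.50]. That ratio was not stable to the processing, at 1.22 with a minimum of 200 genes per barcode, 1.18 with doublets kept and 0.0040 with free RNA subtracted. Fgb stood at 8.69 CPM [5.98, 12.2] and 25.7 CPM [20.3, 32.1], below the T and NK-like cells.

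**Figure D5:**
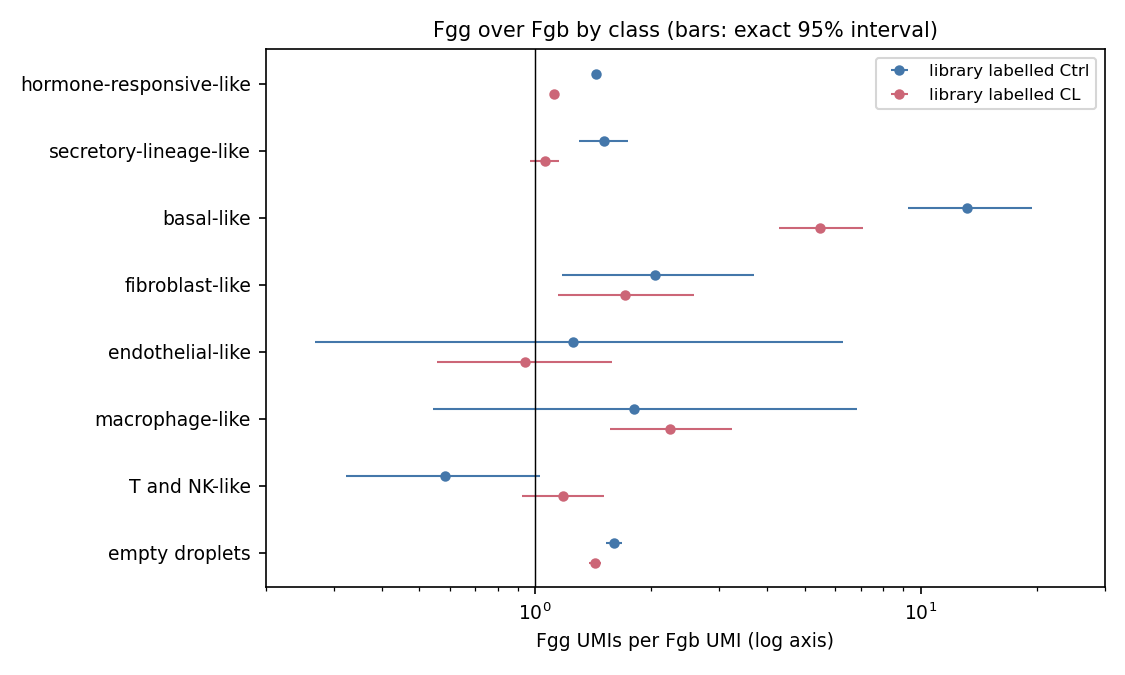
Fgg UMIs per Fgb UMI (log axis) by class and in empty droplets, in the libraries labelled Ctrl and CL, with exact 95% intervals. Basal-like cells have 13.2 and 5.48 Fgg UMIs per Fgb UMI, and their intervals lie above those of the empty droplets.

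The basal Fgg UMIs were gathered in few cells. At least 5 Fgg UMIs were found in 23 of 408 basal-like cells in the Ctrl-labelled library and in 21 of 444 in the CL-labelled library, with at most 30 and 34 UMIs in a cell. Of these cells 2 (8.70% [1.07, 28.0]) and 6 (28.6% [11.3, 52.2]) held any Fgb UMI. Among hormone-responsive-like cells with at least 5 Fgg UMIs, 577 of 848 (68.0% [64.8, 71.2]) and 1239 of 1577 (78.6% [76.5, 80.6]) did. The median depths were 8276 and 8005 UMIs for those basal-like cells and 22024 and 19048 UMIs for the hormone-responsive-like ones, which bears on the chance of a Fgb UMI. The Fgg-positive basal-like cells had 16227 and 16689 CPM of summed basal markers and 482 and 1202 CPM of summed hormone-responsive markers, whereas basal-like cells without Fgg had 20970 and 21102 CPM and 292 and 247 CPM. Summed secretory-lineage markers stood at 142 and 927 CPM in the former and at 367 and 215 CPM in the latter. The part of cells captured together in this result was not tested.

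Of the 4 genes with at least 50 UMIs in basal-like cells, 1 (Fgb, from 33 and 77 UMIs at background level) was higher by 2-fold or more in CL, where 1.09% of all 8381 genes were higher and 1.01% lower. Cp stood at 108 CPM [98.2, 119] and 120 CPM [108, 133], a log2 ratio of 0.15 [−0.059, 0.36], whose interval holds 0. Hp stood at 20.5 CPM [16.2, 25.6] and 19.4 CPM [14.7, 25.0], at the level of the T and NK-like cells.

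Secretory-lineage-like cells, the luminal cells that give rise to milk-producing alveoli, were the main site of ceruloplasmin. Cp stood at 230 CPM [224, 235] in the Ctrl-labelled library and at 331 CPM [326, 337] in the CL-labelled library, a log2 ratio of 0.53 [0.49, 0.57]. No cell held more than 0.411% of these UMIs. At 5227 UMIs per cell 62.9% [60.9, 64.8] and 74.8% [73.4, 76.3] of cells held a Cp UMI (77.2% and 84.5% without thinning), against 3.45% and 4.71% of T and NK-like cells at that depth. The difference recurred inside the clusters of the class, with log2 ratios of 0.40, 0.42, 0.40, 0.43, 0.44 and 0.42 in clusters 3, 4, 5, 6, 7 and 11, whose shares also differed between the libraries. Each of these was below the 0.53 of the class.

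The remaining genes were at background in secretory-lineage-like cells. Fgb stood at 10.2 and 24.3 CPM and Fgg at 15.4 and 25.7 CPM in the libraries labelled Ctrl and CL, below the T and NK-like cells in each. The log2 ratio of Fgb was 1.24, and 0.97 when the cell with most Fgb UMIs, 195 of the 1060 in the CL-labelled library, was left out of each library. Hp stood at 11.5 and 18.0 CPM, a log2 ratio of 0.64 [0.46, 0.83], but 294 of its 785 UMIs in the CL-labelled library came from 1 cell. Without the highest cell of each library the Hp ratio was −0.0015 [−0.20, 0.20]. Of the 4 genes with at least 50 UMIs, 1 (Fgb) was higher by 2-fold or more in CL, where 1.17% of all 12392 genes were higher and 1.18% lower.

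Fibroblast-like cells held most of the Saa3 transcripts. Saa3 stood at 42.7 CPM [33.8, 53.2] in the Ctrl-labelled library and at 238 CPM [214, 263] in the CL-labelled library, a log2 ratio of 2.48 [2.12, 2.84]. The UMIs came from 4 of 224 cells, with 48, 23, 7 and 1 UMIs, and from 14 of 238 cells, led by 137, 120 and 84 UMIs. These are 1.79% and 5.88% of the fibroblast-like cells, so the interval, which treats UMIs as independent, is too narrow for a difference between cells. With the 2 highest cells of each library left out, Saa3 stood at 4.40 and 74.4 CPM. Saa1 had 0 and 3 UMIs in this class.

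The other genes in fibroblast-like cells were low. Cp stood at 76.8 CPM [64.7, 90.5] and 110 CPM [94.4, 128], a log2 ratio of 0.52 [0.19, 0.85] that was 0.070 with a minimum of 1000 genes per barcode, and Cp UMIs were found in 11.1% [7.18, 16.2] and 16.8% [12.1, 22.5] of the cells at 1571 UMIs per cell (33.5% and 39.5% without thinning). Fgb had 20 and 41 UMIs and Hp 27 and 19, both at or below the level of T and NK-like cells. Fgg had 41 and 70 UMIs (22.2 and 44.6 CPM), near the T and NK-like cells (19.4 and 39.5 CPM). Of the Fgg UMIs in the CL-labelled library, 33 were in 1 cell. The log2 ratio of Fgg, 1.01, was 0.17 when the highest cell of each library was left out. Of the 4 genes with at least 50 UMIs, 3 (Fgb, Fgg and Saa3) were higher by 2-fold or more in CL, where 1.51% of all 6700 genes were higher and 2.03% lower.

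Endothelial-like cells, few as they were, held the highest Cp level of any named class in the Ctrl-labelled library. Cp stood at 476 CPM [397, 566] there and at 256 CPM [211, 307] in the CL-labelled library, a log2 ratio of −0.90 [−1.27, −0.52]. The class held 2 clusters that differed in Cp and in share. Cluster 19, led by Nts and Mmrn1, had 890 CPM [724, 1082] and 789 CPM [584, 1044] from 19 and 10 cells, and cluster 14 had 179 CPM [119, 258] and 170 CPM [132, 216] from 34 and 50 cells. Within them the ratio was −0.17 [−0.70, 0.33] and −0.071 [−0.73, 0.62], and these few cells allow falls nearly as large as that of the class. Free RNA was estimated at 12.0% and 29.2% of the UMIs of endothelial-like cells, and with it subtracted the Cp ratio of the class was −1.02. Hp had 1 and 68 UMIs, 49 of the latter in 1 cell, and was 1 gene of the 2 with at least 50 UMIs (with Cp) to be higher by 2-fold or more in CL, where 3.54% of all 2370 genes were higher and 3.46% lower.

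Macrophage-like cells held Hp, which is also a granule protein of neutrophils, and a little Saa3. Hp stood at 90.4 CPM [64.6, 123] in the Ctrl-labelled library and at 166 CPM [150, 184] in the CL-labelled library, a log2 ratio of 0.88 [0.41, 1.39]. It lay in cluster 22, whose leading genes include Lyz2 and S100a8 and which held 19 and 211 cells, with 327 CPM [230, 451] and 209 CPM [188, 232] (log2 ratio −0.65 [−1.14, −0.12]). In cluster 0, led by Cd74 and C1q genes, with 40 and 43 cells, Hp stood at 9.12 CPM [1.88, 26.6] and 25.7 CPM [13.7, 44.0]. The higher value of the class went with a larger share of cluster 22, inside which Hp was lower in the CL-labelled library, from 37 and 348 UMIs. Without the 2 highest cells of each library, which held 17 of the 40 Hp UMIs of the class in the Ctrl-labelled library, the class ratio was 1.44.

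When each cell was named alone, 3 and 23 cells of the macrophage-like class were nearest to neutrophils and held 12 and 95 of its Hp UMIs (1854 CPM [958, 3239] and 982 CPM [795, 1200]). The 47 and 167 cells nearest to macrophages still had 61.2 CPM [38.3, 92.6] and 143 CPM [124, 163]. Hp was thus not confined to the neutrophil-like cells. Saa3 had 0 UMIs in the Ctrl-labelled library, which at 3 counts allows up to 6.78 CPM, and 32 UMIs in 12 cells of the CL-labelled library (14.7 CPM [10.1, 20.8]). Of these 26 were in cells nearest to macrophages and 0 in those nearest to neutrophils. Of the 3 genes with at least 50 UMIs, 1 (Fgg, with 46 of 103 UMIs in 1 cell and a log2 ratio of 1.22 that was 0.49 without the highest cell of each library) was higher by 2-fold or more in CL, where 11.9% of all 5101 genes were higher and 5.37% lower and where the median of all genes was itself shifted by 0.20 on the log2 scale.

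The order of the classes can be read from these levels. For Fgb in the Ctrl-labelled library, hormone-responsive-like cells (427 CPM) were followed by the T and NK-like background (33.2 CPM), and the classes below did not differ from their neighbours beyond counting error. For Fgg the order was hormone-responsive-like (613 CPM), basal-like (115 CPM), and then fibroblast-like (22.2 CPM) and the rest, whose intervals overlapped. For Hp it was hormone-responsive-like (352 CPM), macrophage-like (90.4 CPM), and then the background classes. For Cp the order was endothelial-like (476 CPM), secretory-lineage-like (230 CPM), basal-like (108 CPM) and fibroblast-like (76.8 CPM), each apart from the next, and in the CL-labelled library secretory-lineage-like cells (331 CPM) came before endothelial-like cells (256 CPM).

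The genes whose pattern was most like each member were found by Pearson's r of log2(CPM + 10) over 14 points, the 7 classes in each of the 2 libraries, among 13716 genes. The points share libraries and classes, so r is a description. Fgb was most like Wfdc2 (0.98), Ffar4 (0.97) and Muc16 (0.97). Fgg was most like Cemip (0.96), Fgfr2 (0.96) and Krt6a (0.96). Hp was most like Pgap2 (0.94), Alcam (0.91) and Gm13373 (0.90), and Cp most like Qtrt2 (0.96), Map3k6 (0.94) and Ephx1 (0.94). Saa3 was most like Ifi205 (0.95), Adam23 (0.95) and Cilp (0.94). Saa1 had too few UMIs for this comparison.

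Other acute phase genes differed in either direction. Of 24 such genes, 9 had at least 50 UMIs in hormone-responsive-like cells, and of these 1 (C3, complement component 3, 16 and 45 UMIs) was higher by 2-fold or more and 2 were lower, against 0.769% and 1.61% of all genes there. The median log2 ratio of the 9 was 0.081. The lower ones were Hamp, which encodes the iron hormone hepcidin (434 and 118 UMIs, log2 ratio −2.05), and Hpx, the haem-binding hemopexin (64 and 23 UMIs, −1.64). Lcn2, a lipocalin that withholds iron from bacteria, stood at 203 and 375 CPM in those cells, below the empty droplets (2141 and 3031 CPM). In secretory-lineage-like cells 9 genes had that depth and 1, Cfb (complement factor B, 27 and 380 UMIs, log2 ratio 3.31), was higher, against 1.17% of all genes. Of the genes of the list with that depth in basal-like cells, 2 of 7 (C3 and Cfb) were higher. There 1.09% of all genes were higher and 1.01% lower. In fibroblast-like cells 1 of 9 (C3) was higher, where 1.51% of all genes were higher and 2.03% lower. In T and NK-like cells 0 of 3 were higher, where 1.97% of all genes were higher and 1.1% lower. In secretory-lineage-like, basal-like, fibroblast-like and T and NK-like cells no gene of the list with that depth was lower by 2-fold. In macrophage-like cells 1 of 6 (Cfb) was higher and 2 (Mt1 and Il1rn) were lower. There 11.9% of all genes were higher and 5.37% lower, and nothing is read from these counts. In secretory-lineage-like cells Lcn2 was the most abundant of the list, at 7126 and 8991 CPM. Of 7 genes that fall in an acute phase response, Trf (transferrin) went from 1156 to 681 CPM in secretory-lineage-like cells, a log2 ratio of −0.76. In hormone-responsive-like cells Rbp4 of that list was higher (302 and 502 UMIs, log2 ratio 0.57) and Trf lower (−0.26). Trf was past 2-fold lower in macrophage-like (−1.33) and T and NK-like cells (−1.32), where 5.37% and 1.1% of all genes were lower. T and NK-like cells serve here as the background, so nothing is read from their Trf value.

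No cytokine that drives the response was 2-fold higher in a luminal class among those with at least 50 UMIs. Of all genes only 0.769% (hormone-responsive-like) and 1.17% (secretory-lineage-like) were, so nothing is read from this. Of 9 inducing cytokines, 5 had at least 50 UMIs in hormone-responsive-like cells and none differed 2-fold, where 0.769% and 1.61% of all genes were higher and lower, so that nothing is read from the count. There Tnf stood at 22.7 and 20.9 CPM and Lif at 14.2 and 15.8 CPM. In secretory-lineage-like cells Il6 was lower (36 and 25 UMIs, log2 ratio −1.03) and Lif stood at 358 and 301 CPM. Il6 was highest in fibroblast-like cells, at 675 and 988 CPM (log2 ratio 0.55). In macrophage-like cells Il1a went from 185 to 42.8 CPM (−2.11), Il1b from 1870 to 578 CPM (−1.69) and Tnf from 253 to 64.5 CPM (−1.97). Lif was higher there, from 3 to 57 UMIs of which 23 were in 1 cell (log2 ratio 1.95). These values come from a class whose clusters differed in share between the libraries. Of 18 receptors and signal carriers, 16 had at least 50 UMIs in each luminal class and none differed 2-fold. In secretory-lineage-like cells 1.17% of all genes were higher and 1.18% lower. Nothing is read from the count of receptors and signal carriers either. In hormone-responsive-like cells Stat3 stood at 155 and 155 CPM, Socs3, a target and brake of STAT3, at 367 and 322 CPM, Cebpb at 188 and 214 CPM and Il6ra at 38.3 and 44.7 CPM. Of 23 receptors and partners of the 6 proteins, 16 had that depth in hormone-responsive-like cells. Of these 1, the integrin subunit gene Itgb3 (42 and 19 UMIs, −1.31), was lower by 2-fold or more, against 1.61% of all genes.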

How the data were processed

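Single-cell 3′-end RNA-seq of sorted mouse mammary cells was analysed, 1 library each for Ctrl and CL, grouped by the treatment label. The authors deposited raw UMI counts as unfiltered matrices of 32285 genes by 6794880 barcodes, empty droplets included. The submitters' processing notes name Cell Ranger 2.1.1 and build mm10, while the file headers name Cell Ranger 4, and the annotation is not given in the sources used here. The deposited barcode lists did not index the matrix columns, so as many barcodes as each list held (7217 and 10555), those with most UMIs, were taken as candidates. A minimum of 500 genes left 6909 and 10081 barcodes, and a mitochondrial limit of 15% left 6297 and 9335. Scrublet in scanpy 1.11.5 marked 360 cells (5.72%) in Ctrl and, at the same threshold because its automatic one marked none, 509 (5.45%) in CL, and these were left out. The rest were clustered jointly (2000 variable genes without the members and other acute phase genes, 30 principal components, 15 neighbours, Leiden resolution 1.0) and named from marker lists, with 189 and 529 cells left unnamed and 3 and 21 B-like cells not described. Droplets of 100 to 300 UMIs (54275 and 55973) gave the free RNA.

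CPM is the UMIs of a gene per 1000000 UMIs of a class. Intervals are 95%: Poisson for CPM, Clopper-Pearson for shares, and exact conditional binomial for log2 ratios of CL over Ctrl. With 1 library per group no test was run, and intervals and the limit from 0 counts (3 counts) cover counting error only. A 2-fold call needs at least 50 UMIs over both libraries. The members, gene lists and naming rules were chosen with earlier results of these data known. Named besides the members were genes of the fixed lists with at least 50 CPM, up to the highest 5 a list, and those past 2-fold in a luminal class. A few others were named after their values were seen. Alternatives covered the cell filters, doublets, clustering, cell naming, CPM definition, TMM factors from edgeR 4.0.16, free RNA, thinning depth, droplet range and UMI minimum. The ratios were tried on simulated Poisson counts, and the naming on cells drawn from the basal-like, hormone-responsive-like and secretory-lineage-like profiles. Neither simulation held doublets or UMIs gathered in few cells, so neither bears on those limits. Software was Python 3.11.15 with scipy 1.17.1.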

Additional observations from a re-analysis of the deposited data

Results flagged for a closer look

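The log2 ratio of Hp, CL over Ctrl, was −0.075 in hormone-responsive-like cells, 0.64 in secretory-lineage-like cells, 0.88 in macrophage-like cells and 5.35 in endothelial-like cells, the last from 1 and 68 UMIs, 49 of them in 1 cell. The hormone-responsive value turned positive under 6 alternatives, and the secretory value was −0.0015 without the highest cell of each library. The macrophage value kept its sign under the 14 alternatives tried, while inside cluster 22 of that class the ratio was −0.65, from 37 and 348 UMIs. With 1 library per group the difference between classes was not tested.

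Cp was lower in the CL-labelled library in endothelial-like cells (log2 ratio −0.90) and higher in hormone-responsive-like (1.49), secretory-lineage-like (0.53) and fibroblast-like cells (0.52, and 0.070 with a minimum of 1000 genes). This difference between classes was not tested either.

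Members were also above the empty droplets in clusters that no class could claim. Unnamed cluster 9 (29 and 33 cells), led by Ccl2, Ccl11 and Apod and with markers of fibroblasts and Schwann cells, had Cp at 1110 CPM [921, 1328] in the Ctrl-labelled library and 974 CPM [782, 1198] in the CL-labelled library, above every named class. Unnamed cluster 21 (123 and 451 cells), with markers of both luminal classes, a median of 26270 UMIs and a median doublet score of 0.16, had Hp at 293 and 432 CPM, Cp at 106 and 186 CPM, and Fgg at 653 CPM in the CL-labelled library. The part of undetected doublets in cluster 21 was not tested.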

How the results depend on the processing

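The log2 ratio of the 6 genes summed was positive in all 4 classes and alternatives tried. It was 0.86 in hormone-responsive-like cells and became 0.78 with a minimum of 200 genes, 0.75 with a mitochondrial limit of 5%, 0.85 with none, 0.77 with doublets kept, 0.78 at Leiden resolution 2.0, 0.79 with each cell named alone, 0.89 with TMM factors and 0.79 as the mean of cell CPM. Of the alternatives chosen after seeing the data, counting unnamed cluster 21 as hormone-responsive gave 0.78 and the cluster makeup of the Ctrl-labelled library gave 0.63. In secretory-lineage-like cells 0.58 became 0.63 with a minimum of 1000 genes, 0.53 as the mean of cell CPM, 0.63 with TMM factors and 0.53 with free RNA subtracted. In basal-like cells 0.28 became 1.00 with a minimum of 200 genes, 0.98 with doublets kept and 0.026 with free RNA subtracted. In fibroblast-like cells 1.37 became 0.95 (minimum of 200 genes), 0.88 (1000 genes), 1.11 (mitochondrial limit of 5%), 0.96 (no limit), 1.06 (doublets kept), 1.09 (Leiden resolution 0.5), 1.09 (2.0), 1.05 (each cell named alone), 1.09 (members among the variable genes) and 1.63 (mean of cell CPM).

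Among the 25 ratios of single genes, 3 of those whose interval left out 0 turned their sign, in 8 cases. Hp in hormone-responsive-like cells, −0.075, became 0.0092 with a minimum of 200 genes, 0.013 with doublets kept, 0.025 at Leiden resolution 2.0, 0.040 with each cell named alone, 0.025 with cluster 21 counted and 0.35 at the cluster makeup of the Ctrl-labelled library. Hp in secretory-lineage-like cells became −0.0015 without the highest cell of each library, and Fgg in fibroblast-like cells −0.23 with a minimum of 1000 genes. A further 3 ratios, whose intervals held 0, also changed sign: Hp in basal-like cells (−0.084, from −0.60 to 1.13), and in T and NK-like cells Hp (0.020, from −0.55 to 0.84) and Fgb (0.010, from −0.043 to 1.60), whose highest values came with a minimum of 200 genes. The cause was not tested. A minimum of 200 in place of 50 UMIs changed the number of genes higher and lower by 2-fold from 101 and 211 to 35 and 110 in hormone-responsive-like cells, from 145 and 146 to 84 and 30 in secretory-lineage-like, from 91 and 85 to 34 and 8 in basal-like, from 101 and 136 to 33 and 30 in fibroblast-like, from 84 and 82 to 23 and 24 in endothelial-like, from 140 and 78 to 9 and 17 in T and NK-like, and from 607 and 274 to 167 and 115 in macrophage-like cells.

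No paired analysis was possible because each group is 1 library and no result comes from a test. Depth limits Saa1, at 12 and 14 UMIs in all, and Saa3 outside fibroblast-like cells.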
